A study of Drosophila simulans and Drosophila melanogaster and Drosophila sechellia with 48 samples.

Results

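The Drosophila actin isoform genes Act5C, Act42A, Act57B, Act79B, Act87E and Act88F were looked up by symbol in the table that pairs array probe sets with genes, keeping for each gene its brightest probe set. Of the 6 genes, 3 had a probe set under their own symbol, namely Act79B, Act87E and Act88F, each with 1 probe set, out of 12367 genes or unnamed probe sets that were measured. The cytoplasmic actins Act5C and Act42A and the muscle actin Act57B had none and were not analysed here, so the account is of muscle actins alone. The probe sets of Act79B (143060_f_at) and Act87E (149844_f_at) carry the suffix that marks probes shared within a gene family, which only 53 probe sets on the array carry, whereas that of Act88F (143061_at) does not. Signal read for Act79B or Act87E can therefore include transcripts of other actin genes.

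Actin is the protein of the thin filaments of muscle and of the cytoskeleton of other cells. Fly actin genes encode nearly identical proteins and differ mainly in the tissue where they are transcribed. Act88F is the actin of the indirect flight muscles in the thorax, Act79B is used in leg and other tubular muscles of the adult, and Act87E in body wall muscles, while Act5C and Act42A serve the cytoskeleton of most cells. In a sarcomere, the thin filament also carries tropomyosin and the troponins, myosin forms the thick filament, and the Z-disc anchors the thin filaments.

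Transcript levels were measured in whole males, 20 flies per sample, 3 days after pupation, raised at 25 C, on 48 Affymetrix Drosophila 1.0 arrays whose probes were designed on the D. melanogaster genome. Flies were knocked down with CO2, and the labels name no other agent and no engineered allele in any group. D. melanogaster (mel, 3 arrays) pooled equal shares of genotypes bred by round-robin crosses among 10 isogenic lines whose founders were caught in Winters, CA, and D. simulans was 10 separate crosses of the same kind between isogenic lines (6x11, 11x36, 36x37, 37x43, 43x61, 61x77, 77x85, 85x99, 99x105 and 105x6, 3 arrays each), so that neighbouring crosses share a parental line. D. sechellia (sec), D. mauritiana (mau), D. teissieri (tei), D. yakuba (yak) and D. santomea (san) were each a single stock line with 3 arrays, so line and species cannot be told apart, and these 5 species were assayed later than D. melanogaster and D. simulans. A lower signal outside D. melanogaster cannot be told apart from a poorer match of the probes. Nor can a higher one, since the paper found that keeping mismatched probes tended to raise its expression estimates. In whole flies, fewer muscle cells cannot be told apart from less actin RNA per cell.

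The male label was checked with marker lists. The mean log2 signal of 12 testis genes was between 9.61 and 12.0 on all 48 arrays. That of 10 measured accessory gland genes was between 11.3 and 12.2 in D. melanogaster and between 5.43 and 9.48 in the other species, and the mean of 18 measured yolk and eggshell genes was between 6.19 and 8.36 on all arrays but 2. Those 2, D. sechellia replicate 1 (10.8) and D. simulans 37x43 replicate 3 (10.5), carried female transcripts. A further 3 arrays had a low signal at the 5' end of the ACTIN control transcript, namely D. yakuba replicate 2 (5.47), D. santomea replicate 2 (4.25) and D. simulans 99x105 replicate 3 (3.60), more than 2 log2 units below the median of their own group. Calls of actins and counts of list genes that moved without the first 2 or the other 3 of these arrays are given both ways.

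All 3 muscle actins differed among the 7 species, and none was called among the 10 D. simulans crosses. In the moderated F-test of limma across the species, with Benjamini-Hochberg adjustment over 12367 features, the adjusted p was 0.00323 for Act79B, 0.000147 for Act87E and 7.72e-06 for Act88F, against 66.0% of all features called, so that being called was the common state. Across the crosses the adjusted p was 1 for Act79B and Act87E and 0.522 for Act88F, with 0.558% of all features called. At an unadjusted p under 0.05, 1 of the 3 genes, Act88F, would have been counted among the crosses, where 7.09% of all features had a smaller p. That test used a spread shared by all 16 groups, other species included. For Act88F the standard deviation within a group was 2.04 in D. sechellia, 1.58 in D. teissieri and 1.40 in D. yakuba. Within the crosses it ran from 0.09 (61x77) to 1.02 (85x99). The crosses were not tested against their own spread alone, so the missing call of Act88F does not show that they were alike. The 3 genes differed in how far their levels spread. The standard deviation of the 7 species means was 1.49 log2 units for Act88F, larger than in 94.8% of features, 0.80 for Act79B and 0.59 for Act87E, where the median feature had 0.73. Between replicate arrays of a group the standard deviation was 0.84 for Act88F, 0.65 for Act79B and 0.36 for Act87E, and the median feature had 0.75.

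**Figure D1:**
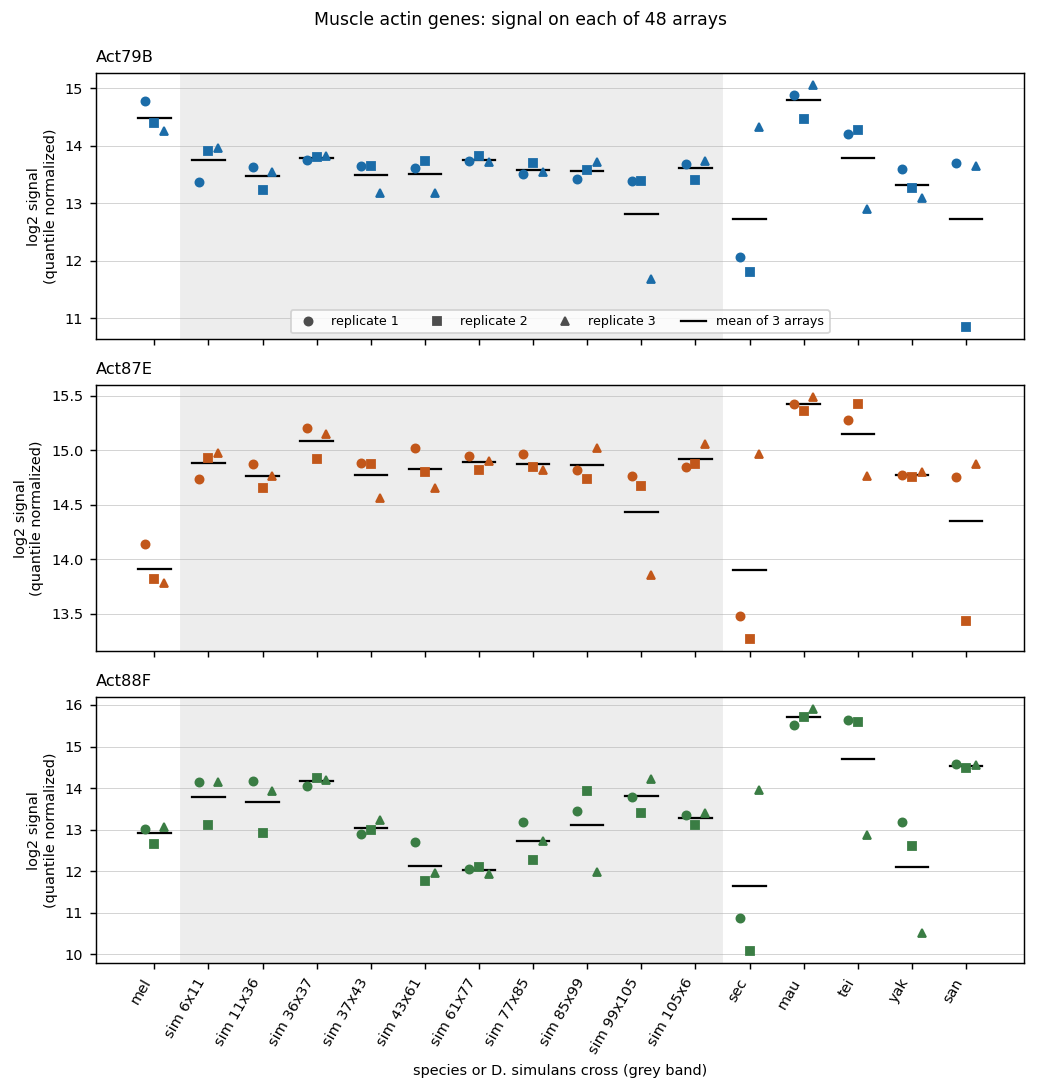
Log2 signal after quantile normalization (vertical axes, 1 panel per gene) of Act79B, Act87E and Act88F on each array, by species and D. simulans cross, with black bars for the mean of 3 arrays. D. mauritiana has the highest species mean in each panel (14.80, 15.42 and 15.71), and D. sechellia has 2 low arrays and 1 higher array in each.

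Act88F, the flight muscle actin, had the widest range. Its log2 signal was 15.52, 15.72 and 15.90 in the 3 D. mauritiana arrays and 15.63, 15.59 and 12.87 in D. teissieri. It was 14.59, 14.49 and 14.56 in D. santomea, a spread of 0.05 (SD, n = 3). D. melanogaster gave 13.01, 12.65 and 13.07. These arrays lay inside the range of the 30 D. simulans arrays, which had a lowest value of 11.76, a median of 13.21 and a highest value of 14.25. D. yakuba gave 13.18, 12.61 and 10.52, and D. sechellia 10.89, 10.07 and 13.94. Both of these species thus had a single array far from the other two, low in D. yakuba and high in D. sechellia. In order of their means, the species ran from D. mauritiana through D. teissieri, D. santomea, D. simulans, D. melanogaster and D. yakuba to D. sechellia, and the arrays of neighbours overlapped at each step except between D. santomea and D. simulans, which were 1.37 apart.

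Act79B, the tubular muscle actin, was also highest in D. mauritiana, with 14.88, 14.48 and 15.05. D. melanogaster came next with 14.79, 14.40 and 14.27, and these overlapped with the D. mauritiana arrays. D. teissieri gave 14.20, 14.28 and 12.91, and D. yakuba 13.61, 13.26 and 13.10. The 30 D. simulans arrays lay between 11.69 and 13.97 with a median of 13.64, all below the lowest D. melanogaster array after quantile normalization. As deposited, the highest D. simulans array (13.94, 6x11 replicate 3) was above the lowest D. melanogaster array (13.82). D. sechellia gave 12.07, 11.81 and 14.32, and D. santomea 13.70, 10.84 and 13.65. The means of the last 2 species, 12.73 ± 1.38 and 12.73 ± 1.63 (SD, n = 3 each), did not differ beyond their spread. The arrays of neighbours in the order overlapped throughout, and D. mauritiana and D. melanogaster, 0.32 apart, were the only neighbours to differ by more than the larger of their standard deviations (0.30).

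Act87E, the body wall actin, varied least. Its log2 signal was 15.42, 15.36 and 15.48 in D. mauritiana and 15.27, 15.42 and 14.76 in D. teissieri. D. yakuba gave 14.77, 14.75 and 14.80, and the 30 D. simulans arrays lay between 13.85 and 15.20 with a median of 14.86. D. santomea gave 14.75, 13.43 and 14.87. The lowest species were D. melanogaster, with 14.14, 13.82 and 13.79, and D. sechellia, with 13.48, 13.26 and 14.96. The order from high to low was D. mauritiana, D. teissieri, D. simulans, D. yakuba, D. santomea, D. melanogaster and D. sechellia, and the arrays of neighbours overlapped at each step. After quantile normalization, D. melanogaster was thus second of the 7 species for Act79B and sixth for Act87E. Both orders depended on that step. As deposited, Act79B was 14.85, 14.97 and 12.71 in D. teissieri, with a mean slightly above that of D. melanogaster (14.50, 14.17 and 13.82). The deposited log2 signal of Act87E was 16.26, 16.37 and 15.29 in D. teissieri and 15.40, 15.68 and 15.96 in D. mauritiana. D. yakuba then gave 15.63, 15.08 and 15.48, all above the highest D. simulans array (15.04). D. melanogaster gave 13.88, 13.64 and 13.49, and D. sechellia 13.27, 13.19 and 14.71.

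D. sechellia and D. mauritiana differed in all 3 genes. The comparison between these close relatives called 5.26% of all features. Act88F was lower in D. sechellia by a log2 difference of -4.08 ± 0.67 (SE, adjusted p = 7.49e-05), or 16.9-fold. Act79B was lower by -2.07 ± 0.53 (adjusted p = 0.0126), or 4.20-fold, and Act87E by -1.52 ± 0.32 (adjusted p = 0.00203), or 2.86-fold. The 3 arrays of one species did not overlap with those of the other for any of the 3 genes, as was so for 30.8% of all features. The size of the differences rested on 2 of the 3 D. sechellia arrays. Replicate 3 was the highest D. sechellia array for each actin, by 3.06 log2 units for Act88F, 2.25 for Act79B and 1.48 for Act87E over the higher of the other two, whereas it was highest for 37.8% of all features. Without replicate 3 the differences became -5.23, -2.87 and -2.05. Without replicate 1, the array with female transcripts, they were -3.70 (adjusted p = 0.00204) for Act88F, -1.31 (adjusted p = 0.0297) for Act87E and -1.74 (adjusted p = 0.108) for Act79B, which then missed the threshold. Act79B also missed it without D. sechellia replicate 2 (adjusted p = 0.145) or D. mauritiana replicate 3 (adjusted p = 0.0651).

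**Figure D2:**
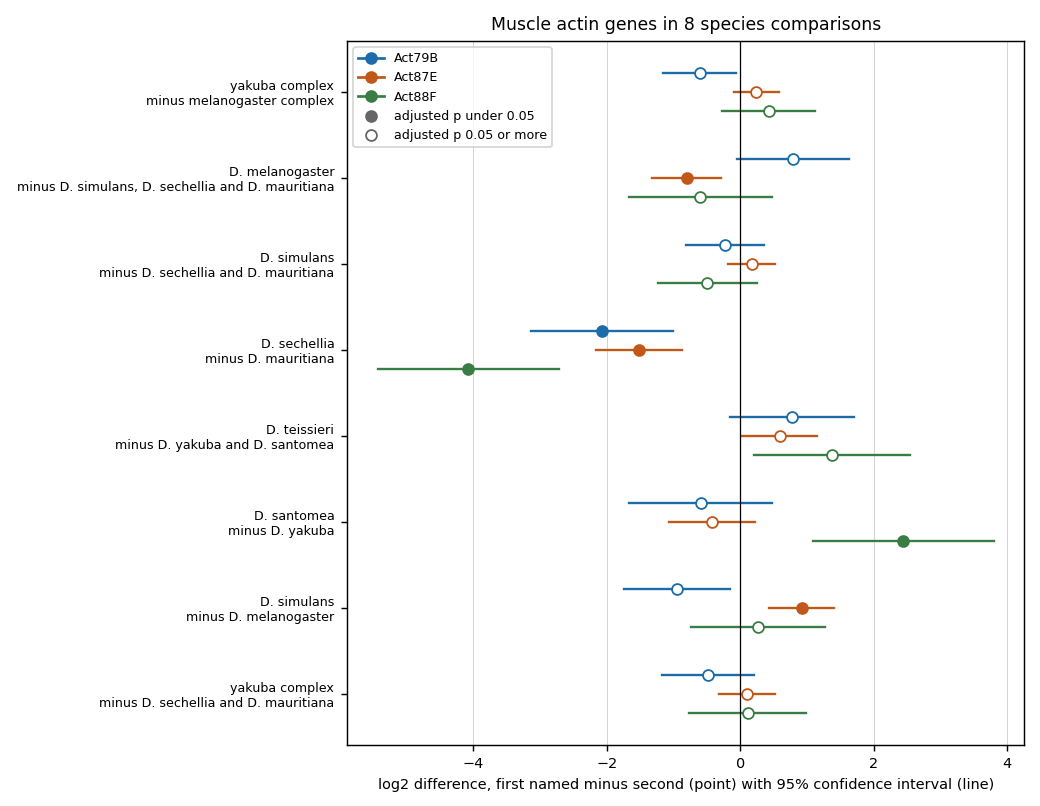
Log2 difference (horizontal axis) between species or species groups in 8 comparisons, as points with 95% confidence intervals; filled points passed an adjusted p of 0.05. The comparison of D. sechellia with D. mauritiana has 3 filled points, at -4.08, -2.07 and -1.52, and no other comparison has more than 1.

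In the comparison of D. santomea with D. yakuba, 1 of the 3 genes was called, against 5.05% of all features. Act88F was higher in D. santomea by 2.44 ± 0.67 (SE, adjusted p = 0.0269), a 5.42-fold difference with all 3 arrays above those of D. yakuba, and the arrays of these species did not overlap for 12.4% of all features. The lowest D. yakuba array, replicate 3, carried part of this, since the difference was 1.65 (adjusted p = 0.156) without it. It was 2.47 (adjusted p = 0.0652) without D. santomea replicate 2 and 2.72 (adjusted p = 0.0651) without the 3 arrays with a low 5' ACTIN control. Act79B (-0.59 ± 0.53, adjusted p = 0.579) and Act87E (-0.42 ± 0.32, adjusted p = 0.493) were not called, and their signs turned without D. santomea replicate 2, to 0.35 and 0.04.

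Within the earlier collection, D. simulans and D. melanogaster differed in Act87E. It was higher in D. simulans by 0.92 ± 0.24 (SE, adjusted p = 0.00546), or 1.89-fold, the only one of the 3 genes called, while 19.2% of all features were. Act79B had the opposite sign, -0.95 ± 0.39 (adjusted p = 0.0866), and passed once D. sechellia replicate 3 (adjusted p = 0.0486) or D. santomea replicate 2 (adjusted p = 0.0285) was left out of the shared estimate of spread. It was -0.89 (adjusted p = 0.0193) without the 3 arrays with a low 5' ACTIN control. Act88F differed by 0.27 with a 95% interval of -0.74 to 1.27. Against the mean of D. simulans, D. sechellia and D. mauritiana, D. melanogaster was again lower in Act87E, by -0.80 ± 0.25 (adjusted p = 0.0201), with 20.9% of all features called. Without D. melanogaster replicate 2 or 3 that adjusted p was 0.0961 or 0.0922. Act79B (0.79 ± 0.41) and Act88F (-0.60 ± 0.52) were not called there, although Act79B reached 1.06 (adjusted p = 0.0404) without D. sechellia replicate 3.

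The remaining comparisons called 0 of the 3 genes in limma. D. teissieri exceeded the mean of D. yakuba and D. santomea by 1.37 ± 0.58 in Act88F (adjusted p = 0.159), 0.77 ± 0.46 in Act79B and 0.59 ± 0.28 in Act87E, and 6.58% of all features were called. Of the 3 genes, 2 had an unadjusted p under 0.05, as did 2520 of 12367 features. D. teissieri replicate 3 was the lowest of its species for each actin, and without it Act88F was higher by 2.29 (adjusted p = 0.0186). D. simulans and the mean of D. sechellia and D. mauritiana differed by -0.23 in Act79B, 0.17 in Act87E and -0.50 in Act88F, with 17.8% of all features called. There, 0 of the 3 genes had an unadjusted p under 0.05, against 3721 of 12367 features. Act88F in D. simulans lay between these 2 species, 13.18 against 11.63 ± 2.04 and 15.71 ± 0.19 (SD, n = 3 each).

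Between the yakuba complex (tei, yak and san) and the melanogaster complex (mel, sim, sec and mau), 49.8% of all features were called, and 0 of the 3 actins. The difference was -0.61 ± 0.27 for Act79B (SE, adjusted p = 0.0609, and the single gene with an unadjusted p under 0.05), 0.24 ± 0.16 for Act87E and 0.42 ± 0.34 for Act88F. An unadjusted p under 0.05 was reached by 6874 of 12367 features. Act79B passed without any of D. sechellia replicates 1 and 2, D. teissieri replicate 2, D. santomea replicates 1 and 3 and D. simulans 99x105 replicate 3, with adjusted p between 0.0199 and 0.0454. Act87E passed without D. santomea replicate 2 or D. sechellia replicate 3 (adjusted p = 0.0292 in both), and Act88F without the latter (adjusted p = 0.0429). Without the 3 arrays with a low 5' ACTIN control, Act87E passed at 0.39 (adjusted p = 0.0246). Without the 2 arrays with female transcripts, Act79B passed at -0.69 (adjusted p = 0.0386). With log2 signals as deposited, without quantile normalization, Act87E was higher in the yakuba complex by 0.998 (adjusted p = 0.000168). Within the later collection, the yakuba complex and the mean of D. sechellia and D. mauritiana differed by -0.48 in Act79B, 0.10 in Act87E and 0.11 in Act88F, with 39.3% of all features called. There, 0 of the 3 genes had an unadjusted p under 0.05, against 5920 of 12367 features. Without quantile normalization, Act87E was higher in the yakuba complex in this comparison by 0.72 (adjusted p = 0.0278).

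Among the D. simulans crosses, Act88F spanned the most. Cross means ran from 12.03 ± 0.09 in 61x77 and 12.14 ± 0.50 in 43x61 to 14.16 ± 0.10 in 36x37 (SD, n = 3 each). The arrays of 61x77 were 12.07, 12.10 and 11.93, those of 43x61 12.71, 11.76 and 11.95, and those of 36x37 14.05, 14.25 and 14.19. The standard deviation of the 10 cross means was 0.72 for Act88F, larger than in 88.9% of features, 0.28 for Act79B and 0.17 for Act87E, smaller than in most features, whose median was 0.41. Other crosses were less even within themselves, and 85x99 gave 13.45, 13.93 and 11.97.

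For Act79B and Act87E a single cross stood apart. Cross 99x105 had means of 12.82 and 14.43, and the other 9 crosses lay between 13.47 and 13.79 for Act79B and between 14.76 and 15.09 for Act87E. The gap came from replicate 3, which gave 11.69 for Act79B against 13.40 and 13.38 in the other two, and 13.85 for Act87E against 14.76 and 14.67. For Act88F the same array gave 14.23, above its 2 companions. Replicate 3 of this cross is among the arrays with a low 5' ACTIN control, and its 5' GAPDH control was 9.93 against 13.07 and 12.88. Without it the cross means were 13.39 and 14.72, which still were the lowest of the 10, next to 13.47 and 14.76.

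Act79B and Act87E moved together from array to array. Over the 48 deviations of arrays from their group means the Pearson correlation of the 2 genes was 0.954, over the 10 cross means 0.944, and over the 7 species means 0.440. The 2 family probe sets may read shared transcripts, and each pair of points shares a library. With Act88F, Act79B correlated at 0.458 over the same 48 deviations, at -0.241 over the 30 D. simulans arrays, at -0.190 over the cross means and at 0.488 over the species means. Act87E did so at 0.464, -0.205, -0.060 and 0.685. Leaving out the 3 arrays with a low 5' ACTIN control, the correlation over deviations was 0.923 between Act79B and Act87E, 0.736 between Act79B and Act88F and 0.664 between Act87E and Act88F. D. sechellia replicate 3 was above its group mean in all 3 genes, and D. teissieri replicate 3, whose 5' ACTIN control was not low, was below it in all 3. D. santomea replicate 2 deviated by -1.89 in Act79B and -0.92 in Act87E but by -0.06 in Act88F. D. simulans 99x105 replicate 3 deviated by -1.13 and -0.58 in the first 2 genes and by 0.42 in Act88F. D. yakuba replicate 2, the other array with a low 5' ACTIN control, was not low in any of the 3 genes after quantile normalization. As deposited, it was the lowest D. yakuba array for Act79B (12.55 against 13.99 and 13.21) and for Act87E (15.08 against 15.63 and 15.48). For Act88F it was not the lowest (11.88 against 13.39 and 10.56). The 5' GAPDH control was also low on D. santomea replicate 2 (8.10 against 13.31 and 13.08) and D. yakuba replicate 2 (10.53 against 13.70 and 14.05). On these arrays the 3' GAPDH control was low too, 6.05 against 10.67 and 10.43 in D. santomea and 9.17 against 10.39 and 10.34 in D. yakuba. It was not low on D. simulans 99x105 replicate 3 (11.94 against 12.01 and 11.86). The part of RNA quality in the actin values was not tested.

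**Figure D3:**
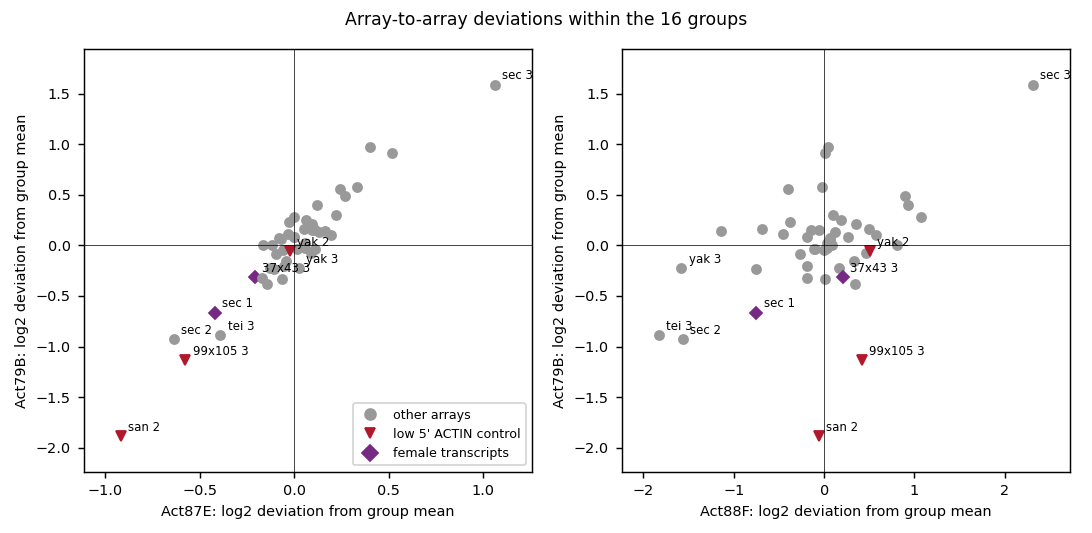
Deviation of each of 48 arrays from its group mean, in log2 units, for Act79B (vertical) against Act87E (left) and Act88F (right), with arrays of low 5' ACTIN control and arrays with female transcripts marked. In the left panel the points follow a line (correlation 0.954), and in the right panel D. santomea replicate 2 (-1.89) and D. simulans 99x105 replicate 3 (-1.13) are low for Act79B while their Act88F deviations are -0.06 and 0.42.

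The array also holds control probe sets for the 3' end, middle and 5' end of an ACTIN transcript, whose gene the tables do not name. They did not order the species as the named genes did. The 3' control averaged 10.8 in D. melanogaster, 11.5 in D. simulans, 11.6 in D. sechellia and 11.2 in D. mauritiana, and from 9.45 to 9.97 in the 3 species of the yakuba complex. The middle control ran the other way, with 11.4 to 12.3 in the yakuba complex, 11.2 in D. melanogaster and 10.1 to 10.7 in the other three. The 5' control was 10.6 in D. melanogaster, 8.92 to 9.55 in the D. simulans relatives and 7.40 to 7.63 in the yakuba complex. Without the arrays low in this same control it was 8.66 in D. yakuba and 8.98 in D. santomea (2 arrays each), at the level of D. mauritiana (8.92), and D. teissieri alone stayed at 7.63. Parts of a single transcript thus gave opposite orders between species, and the part of probe mismatch was not tested. D. sechellia was below D. mauritiana in the middle control (10.1 against 10.7) but not in the 3' or the 5' control.

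**Figure D4:**
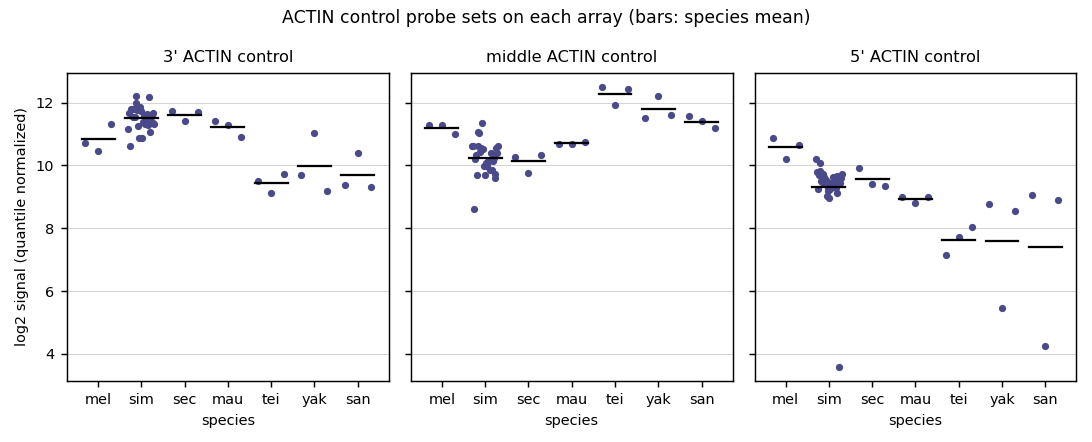
Log2 signal (vertical axis) of the 3', middle and 5' ACTIN control probe sets on each array by species, with bars for species means. The yakuba complex is lowest at the 3' end (9.45 to 9.97) and highest in the middle (11.4 to 12.3), and 3 arrays fall below 6 at the 5' end.

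Genes of the rest of the actin system were counted in 6 lists with 89 symbols, of which 67 were measured. The counts between D. sechellia and D. mauritiana stand beside 5.26% of all features called. Of 6 thin filament genes, 3 were lower in D. sechellia and 0 higher, with a median difference of -1.76 against 0.02 over all features. Those called were the troponin C genes TpnC73F (-2.25 ± 0.49) and TpnC41C (-1.84 ± 0.42) and up, which encodes troponin T (-1.45 ± 0.38). Of 15 thick filament and Z-disc genes, 6 were lower and 1 was higher, with a median of -1.20. The lower genes were led by fln, the flight muscle myosin-binding protein flightin (-4.81 ± 0.67), the Z-disc gene Zasp67 (-4.23 ± 0.98) and the muscle LIM gene Mlp60A (-3.12 ± 0.83), followed by Mlc1, Actn and Msp300 (each between -1.93 and -1.91). The other Z-disc gene Zasp66 was the exception, higher in D. sechellia by 1.20 ± 0.28. Of the other lists, 0 of 23 actin assembly and turnover genes, 0 of 8 nonmuscle actomyosin and crosslinker genes and 0 of 2 actin-related proteins were called, with medians of 0.12, 0.09 and 0.19, and 1 of 13 chaperonin and prefoldin genes was (Pfdn5, 1.28 ± 0.38), all near the share over all features. Without the arrays with female transcripts, 2 thin filament genes and 4 thick filament and Z-disc genes were lower, 1 of the latter was higher, and 0 of the chaperonin and prefoldin genes were called. There, 422 of 12367 features were called. Without the arrays with a low 5' ACTIN control, 5 thin filament genes and 9 thick filament and Z-disc genes were lower, 1 of the latter was higher, and 2 chaperonin and prefoldin genes were higher. There, 1110 of 12367 features were called. None of those arrays is of D. sechellia or D. mauritiana, so the medians stayed at -1.76 and -1.20, and only the shared spread changed.

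The same D. sechellia array stood out in these genes. Of the 10 sarcomere genes called, 9 had their highest D. sechellia value in replicate 3, as did 37.8% of all features. Flightin was 9.30, 8.82 and 12.37 in the 3 D. sechellia arrays and 14.54, 15.13 and 15.27 in those of D. mauritiana. For the 2 genes with the largest differences, D. mauritiana had the highest mean of all species and D. sechellia lay among the rest. The mean of fln was 14.98 in D. mauritiana, 10.16 in D. sechellia and from 9.24 (D. yakuba) to 11.71 (D. simulans) elsewhere. That of Zasp67 was 9.46, 5.23 and from 3.96 (D. melanogaster) to 7.66 (D. teissieri). Mlc1, a myosin light chain, was 12.79, 12.75 and 14.83 against 15.33, 15.42 and 15.39. The mean of 6 measured adult flight muscle genes lay between 13.3 and 13.5 in the D. mauritiana arrays and between 11.0 and 12.5 in those of D. sechellia, and between 10.7 and 12.6 on the arrays of the other species. The part of muscle mass in the actin levels was not tested.

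**Figure D5:**
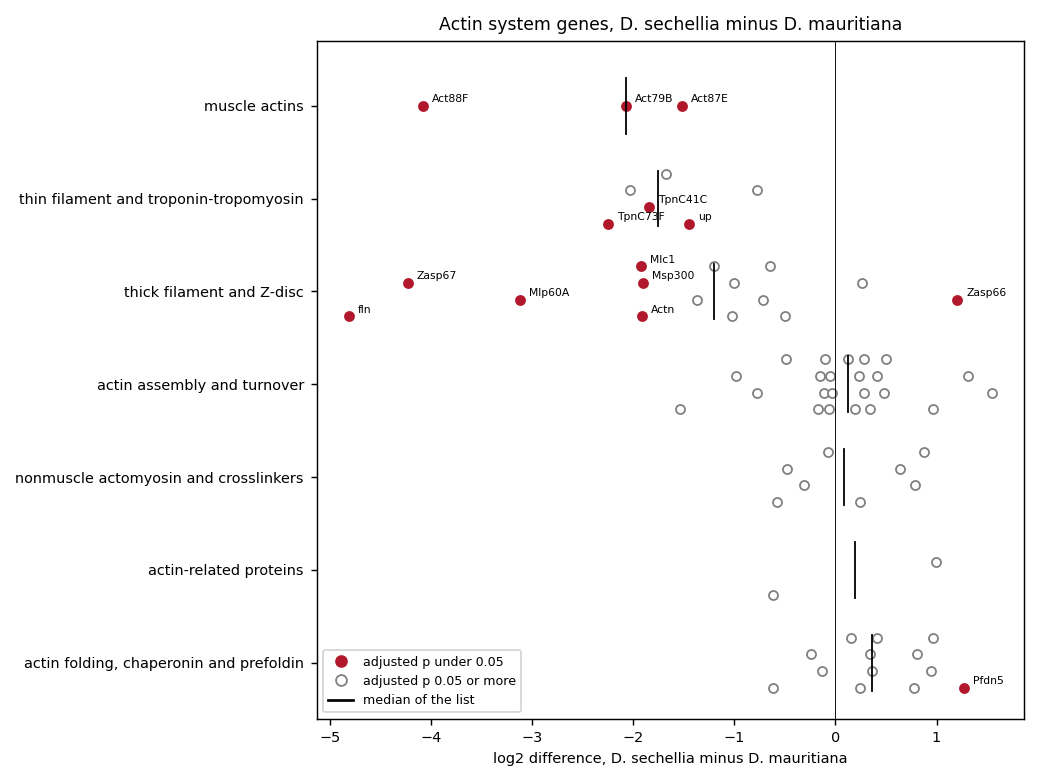
Log2 difference between D. sechellia and D. mauritiana (horizontal axis) of the 3 muscle actins and of the measured genes in 6 lists, with filled points for an adjusted p under 0.05 and bars for list medians. Called points on the lower side lie in the muscle actin, thin filament and thick filament rows, down to -4.81 for fln, while the actin assembly row has none and a median of 0.12.

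Between the yakuba and melanogaster complexes the lists had calls in both directions, beside 49.8% of all features. Of the thin filament genes 2 were higher in the yakuba complex and 3 lower, of thick filament and Z-disc genes 5 and 4, of actin assembly and turnover genes 8 and 9, of nonmuscle actomyosin genes 2 and 2, of actin-related proteins 0 and 1, and of chaperonin and prefoldin genes 3 and 4. Without the 3 arrays with a low 5' ACTIN control, these counts were 2 and 2 for thin filament genes. They were 6 and 4 for thick filament and Z-disc, 9 and 7 for assembly and 3 and 2 for nonmuscle genes. The other lists did not change. Without the 2 arrays with female transcripts, they were 8 and 8 for assembly and 3 and 3 for chaperonin and prefoldin genes. The rest did not change. Across the alternatives, 5187 to 6380 features were called. Among thin filament genes the largest differences were in TpnC41C (-3.18 ± 0.21), TpnC4 (-1.78 ± 0.50), the pointed-end capping gene tmod (-1.28 ± 0.18) and up (0.89 ± 0.19). In the thick filament and Z-disc list they were in the giant kinase gene bt (-2.45 ± 0.30), Mf (-2.13 ± 0.21), fln (-1.95 ± 0.34) and the filamin gene cher (1.16 ± 0.12). Genes that start or extend filaments were led by the Arp2/3 subunit genes Arpc2 (-2.97 ± 0.50) and Arpc3B (-1.43 ± 0.42), the formin gene dia (-2.35 ± 0.38) and ena (-1.82 ± 0.38). Of the nonmuscle genes, the myosin light chain gene Mlc-c (-2.44 ± 0.25) and the actin-oxidising enzyme gene Mical (-1.34 ± 0.25) were lower, and the spectrin gene beta-Spec (1.32 ± 0.14) and the fimbrin gene Fim (0.48 ± 0.20) were higher. Arp8 was lower by -1.64 ± 0.40. Of the folding genes, Pfdn6 (-3.21 ± 0.33), Pfdn1 (-2.25 ± 0.39) and Pfdn4 (-0.84 ± 0.33) were lower and CCT1 (1.19 ± 0.20) was higher. These genes were named for their size, and the list medians were -0.36 for thin filament, 0.29 for thick filament and Z-disc, 0.01 for assembly and turnover, 0.0025 for nonmuscle, -0.78 for actin-related and -0.20 for folding genes, beside 0.08 over all features. The 3 muscle actins had differences between -0.61 and 0.42. D. melanogaster against the mean of D. simulans, D. sechellia and D. mauritiana also had muscle list counts on 1 side, beside 20.9% of all features called. There, 5 of 6 thin filament genes were lower and 0 higher (median -1.48). Of 15 thick filament and Z-disc genes, 5 were lower and 0 higher (median -0.57), beside -0.11 over all features. Without the arrays with a low 5' ACTIN control, 1 gene of each of these lists was higher, with 5 and 6 lower.

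The named genes whose 16 group means followed each actin most closely differed between the 3 actins. For Act88F they were the adult cuticle protein gene Acp1 (Pearson correlation 0.859), the cuticle protein gene Cpr76Bd (0.840) and SP2353 (0.822). Acp1 was 6.55, 6.31 and 12.23 in the D. sechellia arrays and 15.48, 15.48 and 15.67 in those of D. mauritiana, so that it shared the high replicate 3. For Act87E they were tn, a gene needed to maintain muscle (0.881), the Z-disc gene Zasp52 (0.872) and the cuticle gene TwdlT (0.865). For Act79B they were papi (0.849), TP53INP (0.793) and CG42268 (0.776). These correlations describe 16 means that share arrays and were the highest of 10844 named genes. Over the 10 cross means alone the correlation with Act88F was 0.728 for Acp1, 0.357 for Cpr76Bd and 0.499 for SP2353. With Act87E it was 0.563 for tn, 0.766 for Zasp52 and 0.790 for TwdlT, and with Act79B 0.329 for papi, 0.718 for TP53INP and 0.403 for CG42268. Of the 9 genes, 7 had their highest D. sechellia value in replicate 3, beside the same 37.8% of all features.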

How the data were processed

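RNA from whole adult males was hybridised to 48 Affymetrix Drosophila 1.0 arrays. The authors deposited 1 MAS5 signal intensity per probe set on a linear scale (MAS5 is named in the submitters' processing notes), for all 14010 probe sets, and the trimmed mean of each array was 499 to 500 units. The study describes a Loess step and the masking of probes whose sequence is not that of D. yakuba. No probe set is missing from the table, and whether the Loess step was applied is not given in the sources used here. MAS5 subtracts mismatch signal, so a probe that matches a species poorly can move its value.

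Here, 31 values below 1 were set to 1, and log2 values were quantile normalized. Of the probe sets, 12443 had a single gene symbol, and the brightest per gene was kept, giving 12367 features, 10844 of them named. No transcript or protein sequence of these genes was at hand, so none is printed. limma 3.58.1 in R 4.3.3 (lmFit, eBayes) was fitted to the 16 groups, each with 3 arrays labelled as biological replicates, and D. simulans was the mean over its 10 crosses, equally weighted. F-tests covered species and crosses, 8 contrasts compared species, and p-values were adjusted by Benjamini-Hochberg over all features, with a threshold of 0.05. Differences are log2 units with standard errors. The number of arrays limits the precision. The script was tested on simulated data.

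The members and lists were chosen with earlier results of these data known. The genes named are all members, up to 4 genes per list with the largest called difference between the yakuba and melanogaster complexes (or the 2 brightest where none was called), and the 3 named genes most correlated with each member. Genes named for D. sechellia against D. mauritiana, TpnC73F, Zasp66, Zasp67, Mlp60A, Mlc1, Actn, Msp300 and Pfdn5 among them, were named after their values were seen, as all that were called in the lists. Alternatives were no quantile normalization, median centring, a floor of 32, leaving out dim features (no group mean of 8 or more), the second brightest probe set, each feature's own spread, array weights, a replicate block and each array left out in turn. Leaving out the 2 arrays with female transcripts, or the 3 with a low 5' ACTIN control, was chosen after seeing the data.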

Additional observations from a re-analysis of the deposited data

Results flagged for a closer look

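Of the 10 D. simulans crosses, 99x105 lay far below the rest in the mean of Act79B (12.82, the next being 13.47) and of Act87E (14.43, the next being 14.76), and no cross mean of Act88F stood apart in this way. The gap between the lowest cross and its neighbour was 66.6% of the whole range for Act79B. By this measure, chance alone flags an extreme mean in about 1 in 20 sets of 10 means, counted per gene and not per cross. The 2 probe sets are correlated, so the 2 values are not separate observations. Both rest on replicate 3 of the cross, which is among the arrays with a low 5' ACTIN control.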

How the results depend on the processing

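The differences of the 3 actins among species, the lower Act87E and Act88F in D. sechellia than in D. mauritiana, and the higher Act87E in D. simulans than in D. melanogaster kept their direction and their side of the threshold under each of the alternatives and each single array left out. The cause of the other shifts was not tested.

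Single arrays left out moved counts as follows. Features called among crosses ranged from 58 to 129. For D. melanogaster against the mean of D. simulans, D. sechellia and D. mauritiana the features ranged from 1578 to 2887 and the actins from 0 to 2, for D. sechellia against D. mauritiana the features from 359 to 808, for D. santomea against D. yakuba from 383 to 885 with 0 to 1 actins, and for D. simulans against D. melanogaster from 1327 to 2670 with 1 to 2 actins. Actins called ranged from 0 to 2 between the complexes and from 0 to 1 for D. teissieri. Values that turned sign were not called. For D. simulans minus the mean of D. sechellia and D. mauritiana, Act79B ranged from -0.46 to 0.17 and Act88F from -0.89 to 0.081. For D. santomea minus D. yakuba, Act79B ranged from -1.08 to 0.35 and Act87E from -0.68 to 0.036. For the yakuba complex minus the mean of D. sechellia and D. mauritiana, Act87E ranged from -0.063 to 0.36 and Act88F from -0.28 to 0.69, turning without D. sechellia replicates 1 or 2, D. teissieri replicates 1 or 2, or D. yakuba replicate 1.

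Array weights called 682 features among crosses against 69, 4422 against 2201 for D. simulans against the mean of D. sechellia and D. mauritiana (1 actin), 2303 against 650 for D. sechellia against D. mauritiana, and 147 against 625 with 0 actins for D. santomea against D. yakuba. They called 2 actins for D. melanogaster against its relatives and for D. simulans against D. melanogaster, and 1 between the complexes. With them Act79B turned to 0.035 for D. simulans minus the mean of D. sechellia and D. mauritiana, to 0.039 for D. santomea minus D. yakuba and to 0.051 for the yakuba complex minus the mean of D. sechellia and D. mauritiana. Without quantile normalization, and with median centring, 1 actin was called between the complexes, and Act87E turned to -0.087 and -0.14 for D. simulans minus the mean of D. sechellia and D. mauritiana. Without quantile normalization, 1 actin, Act87E (0.72), was called for the yakuba complex against the mean of D. sechellia and D. mauritiana. Median centring called 385 features for D. santomea against D. yakuba. Leaving out dim features called 1 actin between the complexes.

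Leaving out the arrays with female transcripts, chosen after seeing the data, called 1 actin between the complexes and 422 features for D. sechellia against D. mauritiana, where Act79B was -1.74, and turned the yakuba complex minus the mean of D. sechellia and D. mauritiana to -0.0083 for Act87E and -0.079 for Act88F. Leaving out the arrays with a low 5' ACTIN control, also chosen afterwards, called 181 features among crosses, 1110 for D. sechellia against D. mauritiana, 1 actin between the complexes, 0 for D. santomea against D. yakuba and 2 for D. simulans against D. melanogaster, and turned Act79B to 0.32 and Act87E to 0.024 for D. santomea minus D. yakuba. Arrays with the same number in different groups did not deviate together (median correlation -0.001 over 360 pairs, 3 of them over 0.1), so the numbers were not taken as pairs. With the replicate block, 647 features and 3 actins were called for D. sechellia against D. mauritiana, and no call of an actin changed. Few arrays per species limit what could be called.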
